A study of Arabidopsis thaliana with 46 samples.

Results

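Transcripts of shoots were compared between SALK_070989, a T-DNA insertion line of the Arabidopsis transcription factor gene WRKY1, and the wild type Col-0, after a treatment that combined darkness with the absence of nitrogen. The comparison holds 3 arrays of SALK_070989 and 2 of Col-0, out of 46 arrays in the series. Its members are the probe sets, other than array controls, whose mean exceeded 4 on the log2 scale in either group, and 12895 of 22746 met that rule. Of these members, 12208 exceeded 4 in both groups, 339 in SALK_070989 alone and 348 in Col-0 alone. GUT2, at 4.001, lay just inside the limit with a difference of 0.11, and AT1G52630, at 3.998, lay just outside it with a difference of 0.01.

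Seedlings were 14 days old and had been raised on upright plates of MS medium with sucrose, at 22 °C under a day of 16 h light and a night of 8 h. Both groups carry the labels dark and nitrogen absent (mN), so all 5 samples share that treatment and the groups differ in genotype. Whether the line differs from Col-0 in more than the WRKY1 insertion was not tested. In the study's nitrogen treatments the control received potassium chloride in place of potassium nitrate and ammonium nitrate, and the labels do not state concentrations, the length of darkness or transfer times for the combined treatment. SALK_070989 is 1 insertion line, a further Col-0 sample was lost at harvest, and no label ties the replicates to separate cultures. The p-values therefore reflect array-to-array spread only, and that spread may be technical.

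WRKY proteins are plant transcription factors that bind W-box elements, and many of them act in immunity, senescence and stress. A plant kept in the dark stops fixing carbon, draws on starch and then on amino acids and lipids, and turns down the genes of the photosynthetic apparatus. Nitrogen supply acts on the same balance, since amino acids need both carbon skeletons and reduced nitrogen. Late embryogenesis abundant (LEA) proteins accumulate in ripening seeds and under drought, oleosins coat the oil bodies of seeds, and isocitrate lyase belongs to the glyoxylate cycle that turns stored oil into sugar during germination.

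The WRKY1 probe set was at 7.02 and 7.36 in the Col-0 arrays and at 2.23, 2.23 and 2.29 in SALK_070989. The lowest value in the whole table is 2.23, so the transcript was at the floor in SALK_070989 and the difference of -4.93 ± 0.22 is a bound on its size (limma, adjusted p = 9e-20; ± is a standard error throughout). Across the conditions, WRKY1 ranged from 6.57 to 7.84 in the 19 arrays of Col-0 and from 2.23 to 3.26 in the 21 of SALK_070989. Of the 10 splits of the 5 arrays into 3 and 2, only the labelled one gave a difference of this size, so the exact permutation p was 0.1 one-sided and 0.2 when doubled for both sides, the smallest that this doubling can give. The labels do not say where the insertion lies relative to the probes.

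The shoot label was checked with RCA, the activase of Rubisco, which was at 10.87 and 11.17 in Col-0 and 11.45, 11.56 and 11.51 in SALK_070989. The root hair expansin genes EXPA7 and EXPA18 were at 2.23 in both Col-0 arrays, while EXPA7 was at 2.44, 3.17 and 2.61 and EXPA18 at 2.23, 2.41 and 2.41 in SALK_070989. RCA in Col-0 was lower here than in every light-grown Col-0 group, where it lay between 13.92 and 14.05, and close to its range of 11.27 to 11.44 in the Col-0 dark group. MCCA, a leucine-breakdown gene that rises in darkness, was at 9.02 and 9.14, between 7.45 to 7.87 in light and 13.33 to 13.63 in dark.

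Array medians of the 5 samples ran from 4.62 to 4.67. Arrays of 1 group correlated at 0.988 to 0.99 and arrays of different groups at 0.956 to 0.968. Col-0 replicate 1 had a 3′ to 5′ difference of the GAPDH control of 2.91 (log2), where the other 4 arrays had 2.14 to 2.33.

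Of the members, 2768 differed between the genotypes at an adjusted p under 0.05, 1528 higher and 1240 lower in SALK_070989. Over all 14288 probe sets tested, 20.1% were called, 11.1% higher and 8.96% lower. At least a 2-fold difference was found for 510 called members, 258 higher and 252 lower, against 3.7% of all tested probe sets at that size. The changes were of unequal size in the 2 directions, with 91 members at least 4-fold higher and 18 at least 4-fold lower. At least a 16-fold difference was found for 37 higher members and 2 lower ones, of which 1 is WRKY1 and the other has no single gene name. Arrays of the groups did not overlap for 2705 of the called members, and for 47.1% of all tested probe sets whether called or not. A total of 1412 of the 2768 called members carry a single gene name.

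Without Col-0 replicate 1 the count over all tested probe sets fell from 2871 to 1286, and each of the other 4 omissions left at least 2007. With each of the 5 arrays left out in turn, 859 members were called every time, 568 higher and 291 lower. Of the 258 members at least 2-fold higher, 215 were among them, and of the 252 at least 2-fold lower, 151 were.

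**Figure D1:**
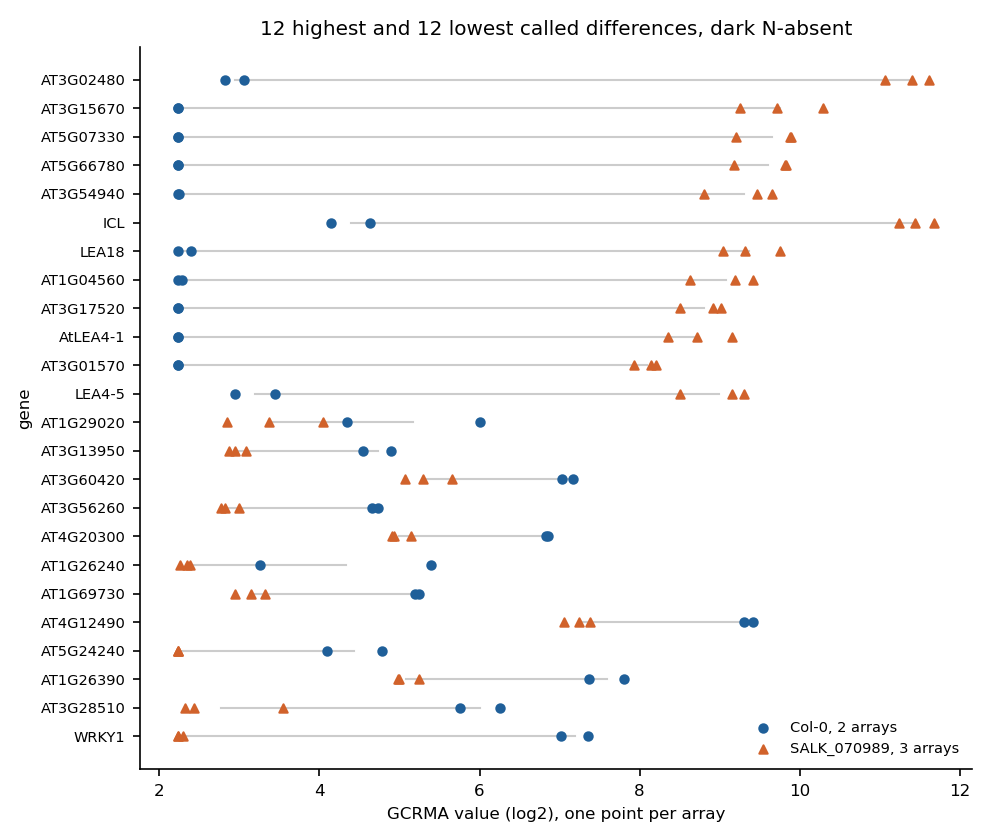
GCRMA values (log2, one point per array) of the 12 highest and 12 lowest called differences among named members whose arrays do not overlap. Circles are the 2 Col-0 arrays, triangles the 3 SALK_070989 arrays and grey lines join the group means. The 12 genes at the top stand at 7.93 or more in every SALK_070989 array and at 4.63 or less in both Col-0 arrays.

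Of 56 named members at least 4-fold higher, 22 are on the lists of LEA proteins, seed storage and oil bodies, or seed oil breakdown, and a further 35 members of that size have no single gene name. All lists hold only probe sets with a single gene name, so a family may be covered only in part. Of 36 such LEA probe sets, 18 were higher in SALK_070989 and 0 lower. A further 8 were tested without a call, and 10 were not tested because no group mean exceeded 4. The median difference over all 36 was 0.37, against 0.00 over all probe sets. Of the 18 calls, 17 held with each array left out. Most of the called ones passed the filter on low values only through SALK_070989 in the combined treatments, so nothing is read from their share among tested probe sets. Over all 36 the 18 make 50%, beside 6.99% higher among all 22746 probe sets. The list was chosen with earlier results of these data known.

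AT3G02480, which encodes a small LEA protein, was at 3.06 and 2.82 in Col-0 and at 11.4, 11.06 and 11.61 in SALK_070989, a difference of 8.42 ± 0.69 (adjusted p = 7.9e-12). AT3G15670, another LEA gene, was at the floor of 2.23 in both Col-0 arrays and at 9.72, 9.25 and 10.29 in SALK_070989, which is at least 184-fold higher. LEA18 was at 2.39 and 2.23 in Col-0 and at 9.32, 9.04 and 9.76 in SALK_070989, a difference of 7.06 ± 0.29 (adjusted p = 2.3e-20). Replicate 2 was the lowest of the 3 SALK_070989 arrays for each of these genes.

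AT3G17520 rose from 2.23 in both Col-0 arrays to 8.92, 8.5 and 9.02. AtLEA4-1, of the group that protects enzymes during drying, rose from 2.23 in both to 9.15, 8.35 and 8.72. LEA4-5 of the same group was at 3.45 and 2.94 in Col-0 and at 9.16, 8.51 and 9.31 in SALK_070989, a difference of 5.8 ± 0.47 (adjusted p = 4.8e-12). The dehydrin gene annotated simply as LEA (AT2G21490) was at 2.23 in both Col-0 arrays and at 7.32, 6.71 and 6.85 in SALK_070989. The remaining called LEA probe sets were higher by 0.64 to 5.22.

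Not all of the family moved. The cold-induced dehydrin gene LTI30 was at 11.77 and 11.27 in Col-0 and at 11.05, 11.71 and 11.43 in SALK_070989, and these ranges overlap (difference -0.13 ± 0.31, adjusted p = 0.83). COR15A, a chloroplast protein of cold acclimation, was at 5.55 and 6.31 in Col-0 and 5.15, 5.4 and 5.64 in SALK_070989 (difference -0.54 ± 0.48, adjusted p = 0.48). COR47 differed by -0.5 ± 0.21 (adjusted p = 0.088). These 3 genes, and the untested storage genes and root markers given by name, were picked after their values were seen.

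Of 10 probe sets for seed storage proteins and oil bodies, 6 were higher, all 6 with each array left out, and 0 were lower. The 6 make 60% of the 10, beside 6.99% higher among all 22746 probe sets. Genes at the floor in Col-0 can pass the filter through SALK_070989 alone, so nothing is read from all 6 tested ones being called. The other 4 were not tested, among them OLEO3, an oleosin gene with group means of 2.24 and 2.43, and AT1G03890, a cruciferin-type storage gene at 2.23 in both groups. The level summed over the 10 on the linear scale was 49 and 48 in Col-0 and 765, 626 and 684 in SALK_070989. The median difference over the 10 was 3.28. The oleosin gene AT3G01570 was at 2.23 in both Col-0 arrays and at 8.2, 8.14 and 7.93 in SALK_070989, at least 58-fold higher (adjusted p = 3.5e-22).

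PAP85, a vicilin-like storage protein gene, was at 2.46 and 2.23 in Col-0 and at 7.1, 6.96 and 7.05 in SALK_070989 (difference 4.69 ± 0.17). ATOEP16-2, the seed form of a plastid outer envelope channel, was at 2.23 in both Col-0 arrays and at 7.02, 6.62 and 6.45 in SALK_070989. AT2G25890, a second oleosin gene, was at 2.23 in both and at 5.91, 4.64 and 6.1. In these bulk samples more cells of a type and more RNA per cell cannot be told apart, and whether seed tissue in the harvested material has a part in these levels was not tested.

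ICL, isocitrate lyase, was at 4.15 and 4.63 in Col-0 and 11.44, 11.24 and 11.68 in SALK_070989. The difference was 7.06 ± 0.42 (adjusted p = 6.5e-16), a 134-fold higher level. The 2 other oil-breakdown probe sets that were tested did not pass. SDP1, the lipase that starts oil breakdown, was at 7.71 and 7.52 in Col-0 and 7.95, 7.87 and 7.87 in SALK_070989 (difference 0.28 ± 0.15, adjusted p = 0.19). AIM1, of peroxisomal fatty acid oxidation, differed by -0.15 ± 0.14 (adjusted p = 0.47).

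Further genes among the 12 highest lie outside these lists. AT5G07330 rose from 2.23 in both Col-0 arrays to 9.89, 9.21 and 9.88. AT5G66780 rose from 2.23 in both to 9.83, 9.18 and 9.82. AT3G54940, of the papain type of cysteine proteases, was at 2.23 and 2.25 in Col-0 and 9.47, 8.81 and 9.65 in SALK_070989. AT1G04560, of the AWPM-19 family of membrane proteins, was at 2.28 and 2.23 in Col-0 and 9.19, 8.63 and 9.42 in SALK_070989. In all of them replicate 2 was again the lowest SALK_070989 array. That it lay above both Col-0 arrays was fixed by choosing genes without overlap of arrays. Leaving out the LEA, storage and oil-breakdown lists, 2745 called members remain, 1505 higher and 1240 lower.

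**Figure D2:**
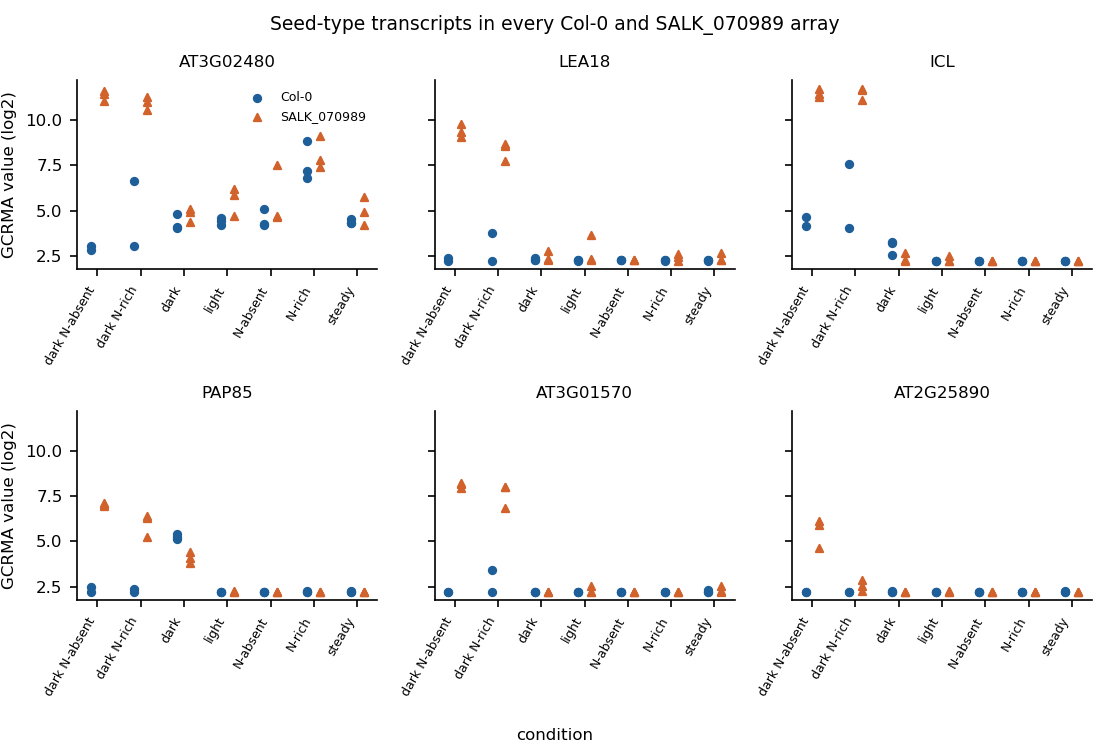
GCRMA values (log2) of 6 transcripts in every Col-0 array (circles) and SALK_070989 array (triangles), by condition. In dark N-absent the SALK_070989 arrays lie above the Col-0 arrays in all 6 panels, in dark N-rich in 5 clearly and for AT2G25890 by a small margin, and in the other 5 conditions no panel shows a gap of that size.

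Over the 21 LEA and storage probe sets at least 4-fold higher, a set picked by these very values, the mean level per array was 2.55 and 2.49 in Col-0 and 7.51, 7 and 7.54 in SALK_070989. In dark N-rich it was 2.54 and 2.91 in Col-0 and 6.04, 5.07 and 5.96 in SALK_070989, and in the remaining 36 arrays it lay between 2.64 and 3.18.

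The list of seed maturation and abscisic acid regulators was written with 44 entries, but only 2 probe sets with a single gene name matched. Of these 1 was tested, that of BZIP53, and it differed by -0.06. The other regulators were thus not assessed here. Among 4 cold and drought genes outside the LEA family, 2 were higher (50%, beside 6.99% higher among all 22746 probe sets). AT2G38905, a small membrane protein of the low-temperature and salt responsive type, was at 2.24 and 2.25 in Col-0 and 5.56, 4.56 and 5.96 in SALK_070989 (difference 3.11 ± 0.25). COR27, a cold-regulated gene under clock control, was at 4.65 and 4.55 in Col-0 and 5.7, 5.48 and 5.65 in SALK_070989 (difference 1.01 ± 0.14, adjusted p = 1.1e-06). Both held with each array left out.

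Genes of the photosynthetic apparatus formed a second, much smaller shift in the same direction. Of 11 nuclear probe sets for photosystem, antenna and NDH subunits, all tested, 8 were higher and 0 lower, with a median difference of 0.44. Of 4 Calvin cycle probe sets 3 were higher, and of 9 for chlorophyll synthesis 4 were higher and 0 lower. These shares of 72.7%, 75% and 44.4% higher stand beside 6.99% among all 22746 probe sets. Nearly all probe sets of these lists were tested, and among the 14288 tested ones 11.1% were higher. With each array left out, 3 of the 8, 2 of the 3 and 2 of the 4 kept their call. Whether the GAPDH bias of Col-0 replicate 1 has a part in these small differences was not tested.

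NdhL, a subunit of the chloroplast NDH complex that cycles electrons around photosystem I, was at 4.14 and 3.56 in Col-0 and 5.24, 5.33 and 4.79 in SALK_070989 (difference 1.27 ± 0.18, adjusted p = 3.1e-06). LHCB4.2, a minor antenna protein of photosystem II, was at 10.58 and 10.93 in Col-0 and 11.52, 11.44 and 11.33 in SALK_070989 (difference 0.67 ± 0.13). PRK, phosphoribulokinase of the Calvin cycle, was at 8.56 and 8.98 in Col-0 and 9.79, 9.61 and 9.53 in SALK_070989 (difference 0.87 ± 0.13, adjusted p = 3.7e-06). The groups did not overlap for these 3 genes, as for most called members. Col-0 replicate 1 was the lower Col-0 array for LHCB4.2 and PRK and the higher one for NdhL.

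RCA was higher by 0.49 ± 0.09 (adjusted p = 0.00017) and SBPASE, which regenerates the carbon acceptor of the same cycle, by 0.54 ± 0.14 (adjusted p = 0.0049). CHLM, a methyltransferase of the magnesium branch of chlorophyll synthesis, was at 8.92 and 9.15 in Col-0 and 9.71, 9.68 and 9.84 in SALK_070989 (difference 0.7 ± 0.09, adjusted p = 8.6e-07). PORB, which reduces protochlorophyllide in the light, was at 9.67 and 9.65 in Col-0 and 10.36, 10.34 and 10.46 in SALK_070989 (difference 0.72 ± 0.2, adjusted p = 0.0098). HEME1, of the shared tetrapyrrole pathway, differed by 0.62 ± 0.14 (adjusted p = 0.0018).

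Genes of the chloroplast genome gave no such calls. Of 69 plastid-encoded probe sets 66 were tested, 0 were higher and 2 lower, with a median difference of -0.51. Their level summed on the linear scale was 150316 and 154378 in Col-0 and 149453, 115647 and 93126 in SALK_070989. The highest SALK_070989 sum lay just under the lower Col-0 sum, and replicate 3 was the lowest. Among 6 tested mitochondria-encoded probe sets, cox1 fell by 0.64 (adjusted p = 0.04).

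HYH, the homolog of the light-signalling factor HY5, went the other way, from 4.4 and 4.03 in Col-0 to 2.68, 2.65 and 2.98 in SALK_070989 (difference -1.44 ± 0.22, adjusted p = 6.3e-06). The level in the Col-0 dark group was 2.58 to 2.69 and in Col-0 light 6.47 to 7.07, so SALK_070989 in dark N-absent was near the former. The clock gene GI differed by -0.1 ± 0.18 (adjusted p = 0.77).

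**Figure D3:**
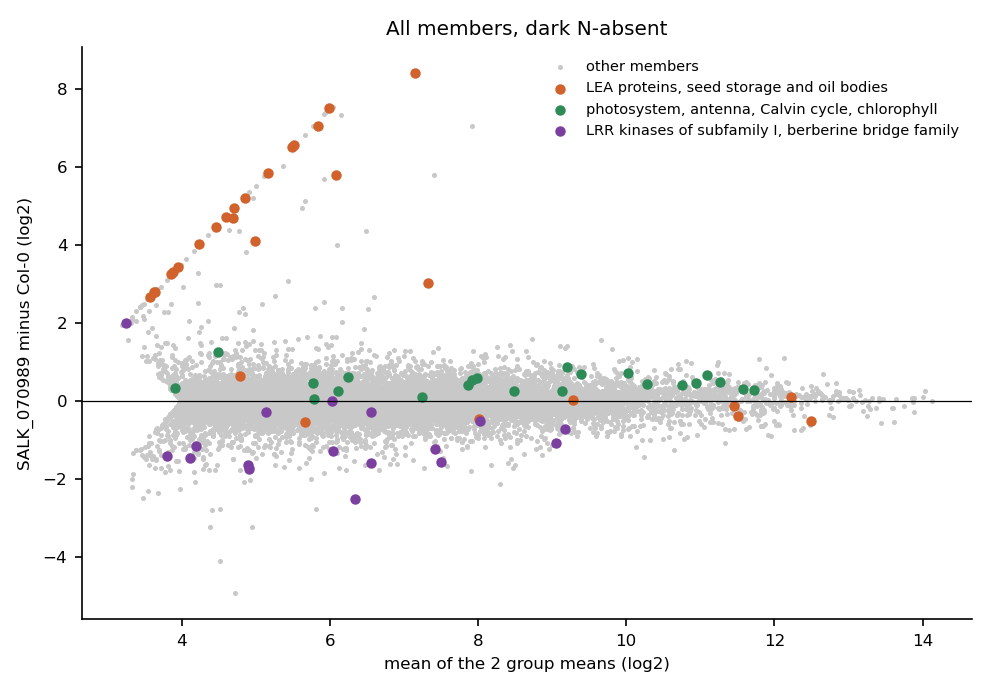
SALK_070989 minus Col-0 (log2) for all 12895 members against the mean of the 2 group means (log2), with 3 groups of lists in colour. The line of points at the upper left is made of transcripts at the floor in Col-0, most of the green photosynthesis genes lie slightly above 0 and most of the purple kinase and oxidase genes lie below it.

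Genes of carbon starvation and amino acid breakdown rose in part. Of 12 probe sets 6 were higher and 1 lower, with a median of 0.54, and 4 of the 6 held with each array left out. The 6 make 50%, beside 6.99% higher among all 22746 probe sets and 11.1% among the 14288 tested. The rise was not particular to this treatment: in steady growth 7 were higher and 0 lower (median 0.51), and in light 4 and 0 (median 0.36). In dark N-rich, dark, N-absent and N-rich 0 were higher, with medians of -0.19, -0.13, -0.23 and -0.23. AT2G20670, known as sugar-repressed, was at 7.86 and 8.01 in Col-0 and 9.55, 9.54 and 9.45 in SALK_070989 (difference 1.58 ± 0.24, adjusted p = 1.2e-05). MCCA and MCCB encode the 2 subunits of methylcrotonyl-CoA carboxylase, which breaks down leucine. MCCA was at 9.02 and 9.14 in Col-0 and 10.23, 9.87 and 9.97 in SALK_070989 (difference 0.94 ± 0.19, adjusted p = 0.00049). MCCB was at 6.7 and 6.85 in Col-0 and 7.91, 7.6 and 7.63 in SALK_070989 (difference 0.94 ± 0.13, adjusted p = 1.2e-06).

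IVD, isovaleryl-CoA dehydrogenase of the same pathway, was at 8.02 and 8.2 in Col-0 and 9, 9 and 8.7 in SALK_070989 (difference 0.79 ± 0.17, adjusted p = 0.00066). Arrays did not overlap for these 4 genes, as for 2705 of the 2768 called members, so this adds little to the calls. BZIP53, a transcription factor of both seed maturation and the low-energy response, was at 9.32 and 9.18 in Col-0 and 9.33, 9.07 and 9.17 in SALK_070989 (difference -0.06 ± 0.14, adjusted p = 0.82). Of 10 autophagy probe sets, all tested with limma, 0 were called at the adjusted threshold and 3 had an unadjusted p under 0.05, with differences from -0.4 to 0.52. Of 8 starch probe sets 6 were tested, 2 were higher and 1 lower, the lower one being QQS, a gene specific to Arabidopsis that affects starch content. Their shares of 25% higher and 12.5% lower stand beside 6.99% and 5.63% among all 22746 probe sets. With each array left out, 1 of the 2 higher calls and that of QQS held.

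Calls among nitrogen genes came at about the background share of 20.1%. Of 6 nitrate response probe sets 5 were tested and 1 was higher: AT1G68670, a GARP-type transcription factor gene of the nitrate response, at 6.14 and 5.9 in Col-0 and 6.84, 6.56 and 6.62 in SALK_070989 (difference 0.65 ± 0.17, adjusted p = 0.0058). That call held in 4 of the 5 fits with an array left out. The high-affinity nitrate transporter gene NRT2.5, induced in nitrogen-starved plants, was at 8.77 and 8.8 in Col-0 and 8.09, 8.06 and 7.56 in SALK_070989, a difference that missed the threshold (-0.88 ± 0.49, adjusted p = 0.22). Of 4 probe sets for nitrogen assimilation and recycling 0 were called by limma and 1 had an unadjusted p under 0.05, with AAH, of ureide breakdown, closest at 0.38 ± 0.14 (adjusted p = 0.06). Among CC-type glutaredoxins, many of which respond to nitrate, 16 were tested, 2 were higher and 2 lower (25%), and 0 of these calls held with each array left out. AT3G62950 of this family was at 4.5 and 5.03 in Col-0 and 6.56, 5.45 and 6.28 in SALK_070989 (difference 1.33 ± 0.32, adjusted p = 0.0024).

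Among the 1240 lower members were some receptor kinases and oxidases of families that respond to pathogens. Of 31 probe sets for receptor kinases of leucine-rich-repeat subfamily I, 6 were lower and 0 higher, 2 of the 6 with each array left out. The 6 make 19.4% of the 31, beside 5.63% lower among all 22746 probe sets. The other 25 were not tested because no group mean exceeded 4. AT1G51820 was at 5.63 and 5.93 in Col-0 and 3.81, 4.33 and 3.96 in SALK_070989 (difference -1.75 ± 0.33, adjusted p = 0.00017). AT1G51850 was at 8.43 and 8.13 in Col-0 and 6.56, 6.93 and 6.67 in SALK_070989 (difference -1.56 ± 0.44, adjusted p = 0.01). AT1G51860 was at 5.14 and 4.56 in Col-0 and 2.83, 3.8 and 3.54 in SALK_070989 (difference -1.46 ± 0.25). Groups did not overlap for these 3, whereas for AT2G28960, at 5.64 and 3.93 against 2.89, 4.09 and 3.88, they did. Several of these kinases are close copies next to each other in the genome, and probes could share their transcripts.

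Of 22 probe sets for the berberine bridge enzyme family, whose members oxidise carbohydrates and defence compounds, 15 were tested, 7 were lower and 1 higher. The 7 make 31.8% of the 22, beside 5.63% lower among all 22746 probe sets. AT1G26390 was at 7.81 and 7.37 in Col-0 and 5.24, 5 and 4.98 in SALK_070989 (difference -2.51 ± 0.36, adjusted p = 3.4e-06). AT1G26420 was at 6.12 and 5.32 in Col-0 and 4.59, 3.66 and 3.95 in SALK_070989 (difference -1.65 ± 0.28). AT1G26380 was at 7.9 and 6.79 in Col-0 and 6.04, 5.11 and 6.15 in SALK_070989 (difference -1.58 ± 0.35). AT5G44440 went the opposite way, from 2.24 in both Col-0 arrays to 4.22, 4.05 and 4.47 (difference 2.01 ± 0.18, adjusted p = 4.5e-11). With each array left out, 2 of the 7 lower calls and the higher one held.

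The lowest named difference after WRKY1 was that of AT3G28510, an AAA-type ATPase gene, at 6.26 and 5.76 in Col-0 and 3.55, 2.43 and 2.32 in SALK_070989 (difference -3.24 ± 0.5, adjusted p = 1.1e-05). AT5G24240, which encodes a phosphoinositide kinase-like protein, was at 4.78 and 4.09 in Col-0 and at 2.23 in all 3 SALK_070989 arrays, which is at least 4.6-fold lower. AT1G69730, of the wall-associated kinase family, was at 5.2 and 5.24 in Col-0 and 3.32, 3.15 and 2.94 in SALK_070989 (difference -2.09 ± 0.24). These calls held with each array left out. Under a further quantile normalization, which left the median difference unmoved, no named gene lost its call and none changed direction.

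AT1G26240, an extensin-type cell wall protein gene, was at 5.39 and 3.26 in Col-0 and 2.38, 2.26 and 2.35 in SALK_070989 (difference -2 ± 0.27), and the Col-0 arrays lay further apart than the group means. AT4G12490, of the lipid transfer type, was at 9.3 and 9.42 in Col-0 and 7.06, 7.38 and 7.24 in SALK_070989 (difference -2.13 ± 0.65, adjusted p = 0.018). That call held in 2 of the 5 fits with an array left out. AT3G60420 fell from 7.17 and 7.03 to 5.29, 5.07 and 5.66, AT3G56260 from 4.73 and 4.66 to 2.77, 2.99 and 2.82, and AT3G13950 from 4.55 and 4.9 to 2.95, 2.87 and 3.08.

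WRKY53, a regulator of senescence and defence, was at 6.91 and 6.57 in Col-0 and 5.78, 6.18 and 5.66 in SALK_070989 (difference -0.87 ± 0.26, adjusted p = 0.015). WRKY47 was at 7.35 and 7.19 in Col-0 and 6.33, 6.55 and 6.27 in SALK_070989 (difference -0.89 ± 0.27, adjusted p = 0.019). WRKY22 differed by -0.46 ± 0.19 (adjusted p = 0.085). Of 7 WRKY probe sets 6 were tested and 3 were lower, WRKY1 among them, and that 1 alone held with each array left out. The 3 make 42.9% of the 7, beside 5.63% lower among all 22746 probe sets. WRKY1 is the gene targeted in this line, so its part of that share is no result about the family.

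Of 10 chaperone probe sets 7 were tested, 4 were lower and 0 higher. The 4 make 40% of the 10, beside 5.63% lower among all 22746 probe sets. Hsp70-2, a cytosolic chaperone gene, was at 9.36 and 9.04 in Col-0 and 7.49, 7.79 and 7.82 in SALK_070989 (difference -1.5 ± 0.25, adjusted p = 3e-05), and it alone held with each array left out. AT3G09440, a further HSP70 gene, was at 12.46 and 12.35 in Col-0 and 11.22, 11.63 and 11.65 in SALK_070989 (difference -0.91 ± 0.25, adjusted p = 0.008). AT5G51440, of the small heat shock type, was at 6.45 and 6.75 in Col-0 and 4.66, 6.11 and 5.39 in SALK_070989 (difference -1.22 ± 0.33, adjusted p = 0.0069).

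In the cell wall and detoxification lists the share called in either direction was near the background, but all calls were higher. Of 28 probe sets for expansins and xyloglucan enzymes, which loosen walls during growth, 18 were tested, 4 were higher and 0 lower. These 4 make 22.2%, beside 20.1% called in either direction and 11.1% called higher among all tested probe sets. EXPA20 was at 2.8 and 2.83 in Col-0 and 4.16, 4.51 and 4.82 in SALK_070989 (difference 1.68 ± 0.18), and EXPA9 differed by 1.59 ± 0.23 (adjusted p = 5.5e-06). GSTU26, a tau-class glutathione transferase, was at 3.09 and 2.83 in Col-0 and 4.62, 5.95 and 5.88 in SALK_070989 (difference 2.52 ± 0.26, adjusted p = 4.6e-09). Of 9 glutathione transferases tested 2 were higher and 0 lower, again 22.2% beside 11.1% called higher. TMT2, a sugar importer of the vacuole, differed by 0.73 ± 0.14 (adjusted p = 0.00031), and SFP1, a sugar transporter-like gene, by -0.67 ± 0.13 (adjusted p = 0.00033).

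**Figure D4:**
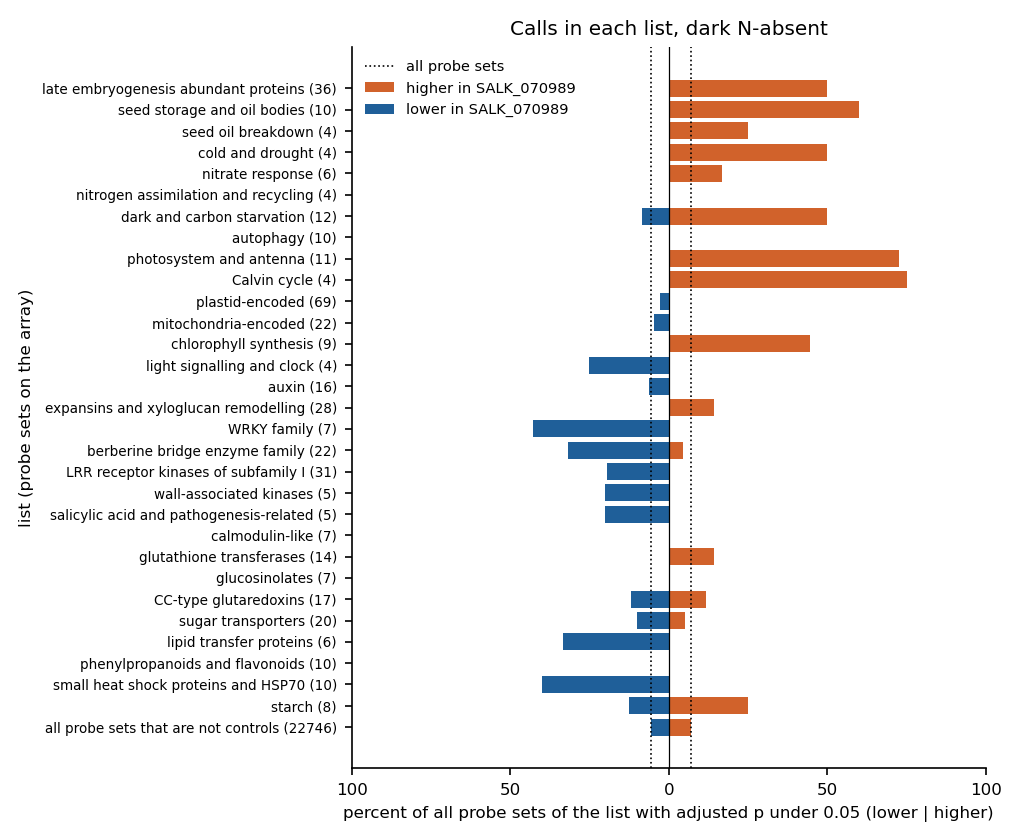
Percent of all probe sets of each list called higher (right) or lower (left) in SALK_070989, for lists with at least 4 probe sets. Their number stands in brackets and, for the gene lists, counts only probe sets with a single gene name. Untested probe sets count as not called. Dotted lines mark 6.99% higher and 5.63% lower over all 22746 probe sets. The higher bars reach 75% for the Calvin cycle (3 of 4) and 50% for LEA proteins, and the lower bars 42.9% for the WRKY family (3 of 7).

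The lists for calmodulin-like proteins, glucosinolates, and phenylpropanoids and flavonoids had 0 calls by limma, with 1 of 5, 1 of 5 and 2 of 9 tested probe sets at an unadjusted p under 0.05. In the salicylic acid list 2 of 5 probe sets were tested, and ECS1 differed by -0.43 ± 0.15 (adjusted p = 0.038). Among 7 auxin probe sets tested, GH3.3, which conjugates auxin to amino acids, was the only call (difference -0.73 ± 0.22, adjusted p = 0.017). FMA, a guard cell gene, was at 5.28 and 6.2 in Col-0 and 5.13, 5.66 and 5.49 in SALK_070989, overlapping ranges.

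The study also measured SALK_070989 against Col-0 in 6 other conditions, each with its own Col-0 arrays: dark N-rich, the nitrogen-supplied partner of the combined treatment, and dark, light, N-absent, N-rich and steady growth from separate experiments. Shares of called probe sets there were 5.19% in dark N-rich, 2.6% in dark, 5.61% in light, 8.02% in N-absent, 2.75% in N-rich and 12.5% in steady. Of the 2768 members called in dark N-absent, 249 were called in the same direction in dark N-rich, which is 9% of the former and 38% of the 656 members called there, and 52 were called in opposite directions. The differences of the 2 conditions correlated at 0.512 over the members, as a description across genes. For dark, 42 were called in the same direction (1.52% of the dark N-absent calls) and 69 in opposite directions, with a correlation of -0.058. For N-absent 225 went the same way (8.13%) and 82 the opposite way, and for steady 398 (14.4%) and 49. For light 176 went the same way and 28 the opposite way, and for N-rich 34 and 64.

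Most of the strongest higher genes were also higher in dark N-rich. Of 91 members at least 4-fold higher, 77 were higher in dark N-rich, with a median difference there of 2.42, and between 0 and 3 in each of the other 5 conditions. Over all tested probe sets the share called higher was 2.68% in dark N-rich, 1.46% in dark, 3.81% in light, 4.18% in N-absent, 1.62% in N-rich and 5.61% in steady. In dark N-rich, AT3G02480 was at 3.03 and 6.61 in Col-0 and 11.26, 10.54 and 11 in SALK_070989, and ICL at 4.04 and 7.56 in Col-0 and 11.63, 11.09 and 11.72 in SALK_070989. Col-0 replicate 2 of that condition thus held these transcripts above its partner array. PAP85 went the opposite way in dark, at 5.25, 5.4 and 5.11 in Col-0 and 4.09, 4.41 and 3.81 in SALK_070989.

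Whether the effect itself differed between conditions was tested in the same fit. It departed from that in dark N-rich for 1363 probe sets (9.54% of those tested), from that in dark for 2112 (14.8%) and from that in N-absent under light for 1690 (11.8%). Without Col-0 dark N-absent replicate 1 these counts were 738, 1181 and 868, and without Col-0 dark N-rich replicate 1 the first was 769. The combined treatment is its own experiment, so treatment and experiment cannot be told apart in the comparisons with dark and N-absent. Among LEA probe sets, 13 of 36 had a larger difference in dark N-absent than in dark N-rich. Among those of storage and oil bodies 5 of 10 did. Over all probe sets 867 of 22746 did, the untested ones counted as not called throughout. The gene LEA rose by 3.18 ± 0.31 more (adjusted p = 8.2e-09) and AT2G25890, which missed the threshold in dark N-rich, by 2.99 ± 0.27 more.

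In dark N-rich 0 of the 11 photosystem, antenna and NDH probe sets were higher and 1 was lower. Of these 11, 6 had a larger difference in dark N-absent, of the 4 Calvin cycle ones 2 and of the 12 carbon starvation ones 5. None in these lists had a smaller one. Over all 14288 tested probe sets, 867 had a larger difference and 496 a smaller one. PRK differed by 0.03 ± 0.13 in dark N-rich and its difference was 0.84 ± 0.18 larger in dark N-absent (adjusted p = 0.002). RCA was at 11.75 and 11.44 in Col-0 and 11.55, 11.39 and 11.23 in SALK_070989 in dark N-rich, so the genotypes overlapped there. MCCA was lower in Col-0 without nitrogen (9.02 and 9.14) than with it (11.07 and 10.72), and in SALK_070989 it was at 9.87 to 10.23 and 10.14 to 10.54.

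**Figure D5:**
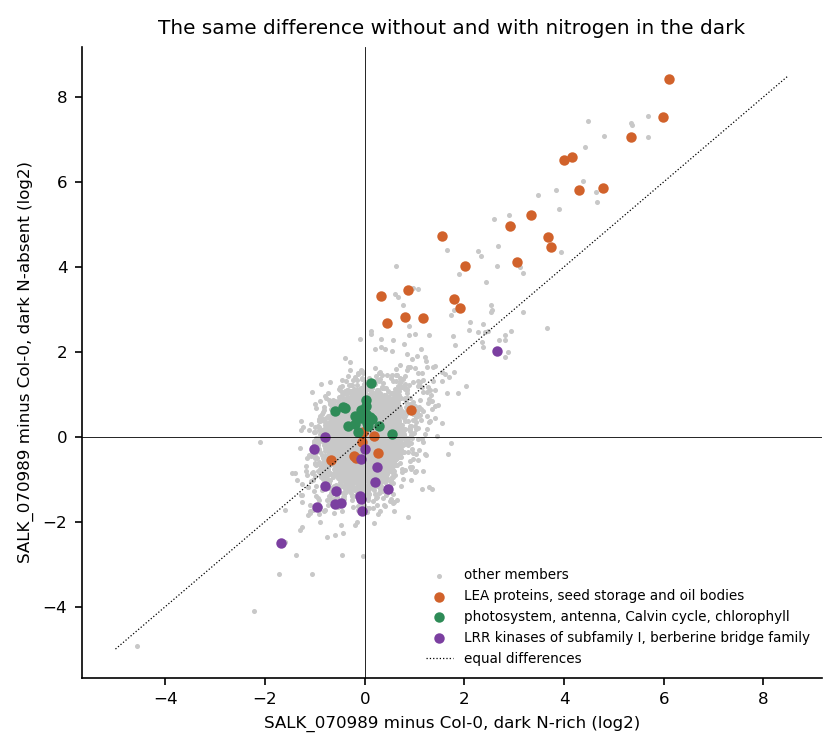
SALK_070989 minus Col-0 (log2) in dark N-absent against the same difference in dark N-rich, for all 12895 members, with lists in colour and a dotted line of equal differences. The called LEA and oil body genes extend along and mostly above the line up to 8.42 and 6.11, whereas the photosynthesis genes lie above 0 on the vertical axis and around 0 on the horizontal one.

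A few genes differed in the same direction in several conditions. WRKY1 and AT4G20300 were lower in all 7. AT4G20300 was at 6.85 and 6.83 in Col-0 and 5.14, 4.93 and 4.91 in SALK_070989 (difference -1.84 ± 0.15, adjusted p = 1.3e-11), and its differences elsewhere ran from -1.67 to -0.54. QQS was at 6.61 and 6.29 in Col-0 and 4.85, 4.38 and 4.95 in SALK_070989 (difference -1.72 ± 0.27, adjusted p = 1.3e-05), with -1.59 in dark N-rich and -0.08 in N-rich, and was called lower in 5 of the 6 other conditions. AT4G28703 was higher by 1.15 ± 0.29 and by 2.67 in steady, while AT2G25510 was lower by 1.01 on the log2 scale here and differed by -1.67 in dark.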

How the data were processed

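Shoot RNA was amplified with a 3′ labelling kit and hybridised to Affymetrix arrays (labels' protocols). A single table of log2 expression values was deposited by the authors, and the submitters' processing notes name GCRMA as the tool; that the scale is log2 was read from the values, which run from 2.23 to 14.63. Of the values, 26.4% lie within 0.01 of the lowest, so a difference against a group at that floor is a lower bound. Arrays give no read depth, and their number limits the precision.

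Of 22810 probe sets, 64 controls were left out, and the 14288 whose highest group mean exceeded 4 were tested. A linear model with 16 group means over all 46 arrays was fitted in limma 3.58.1 (R 4.3.3), with empirical Bayes moderation (30 residual degrees of freedom), and p-values were adjusted by Benjamini-Hochberg over all tested probe sets at 0.05. Every adjusted p printed is from limma. Differences are SALK_070989 minus Col-0 on the log2 scale, ± the standard error; differences of effects were contrasts in the same fit. The fit was tested on simulated data.

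Names came from the platform annotation, updated through a TAIR10.1 gene table (13484 of 13513 probe sets with a single gene matched; 503 have several genes and 8730 non-control ones are unnamed here). Named genes were the 12 highest and 12 lowest called differences without overlap of arrays, the 10 highest and lowest that kept their call with each array left out, up to 4 of smallest adjusted p per list, the 5 highest and lowest for each difference of effects, and up to 10 called in the same direction in most conditions. The members and lists were chosen with earlier results of these data known. Lists were matched only to probe sets with a single gene name. Filters, normalization, moderation, array weights, the samples fitted, a replicate block and each array of the groups were varied.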

Additional observations from a re-analysis of the deposited data

Results flagged for a closer look

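The genotype difference itself departed between conditions by a test of that departure (limma, contrast of differences) for 1363 probe sets against dark N-rich, 2112 against dark and 1690 against N-absent. Values below are the dark N-absent difference minus the other one, on the log2 scale.

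Against dark N-rich the highest were AT1G27990 (3.38), LEA (3.18), AT2G25890 (2.99), AT5G07330 (2.95) and AT5G04000 (2.75). The lowest were AT5G51440 (-2.58), AT1G57630 (-2.47), AT3G28510 (-2.2), AT1G22810 (-2.12) and AT1G49000 (-2.12). The small heat shock gene AT5G51440 was lower in SALK_070989 by the test in dark N-absent and higher in dark N-rich.

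Against dark the highest were AT3G02480 (7.96), ICL (7.68), AT3G15670 (7.52), AT5G07330 (7.43) and AT5G66780 (7.38). The lowest were AT3G28510 (-3.24), AT1G51850 (-2.91), AT1G26390 (-2.53), AT2G43620 (-2.35) and AT5G24210 (-2.25).

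Against N-absent the highest were AT5G07330 (7.43), AT5G66780 (7.38), AT3G02480 (7.3), AT3G15670 (7.18) and AT3G54940 (7.07). The lowest were AT3G56260 (-2.76), AT3G28510 (-2.69), AT1G49000 (-2.56), AT5G41900 (-2.55) and AT1G26380 (-2.4). AT3G28510 was among the 5 lowest against each of the 3 conditions.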

How the results depend on the processing

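None of the called named genes and none of the named departures changed direction under the alternatives in which it was tested; the medians of the lists were not recomputed. Fitted to only the groups compared, the counts were 1251 for the genotypes in dark N-absent, 360 for the departure from dark N-rich and 647 for that from N-absent. With each array left out in turn they ran from 1286 to 2675, from 738 to 1539, from 1181 to 2150 for the departure from dark, and from 868 to 1739, lowest in each case without Col-0 dark N-absent replicate 1. WRKY1 ran from -5.1 to -4.76. The numbered replicates were not paired by the data (correlations of deviations between -0.09 and 0.09); a replicate block gave 2097 calls, 892 for the departure from dark N-rich, and -4.95 for WRKY1. Of 99 named genes called, the block lost 11, the fit to only the groups compared 28 and the omission of Col-0 replicate 1 31. The causes were not tested. With 2 Col-0 arrays, small differences are the least certain.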
